A study of Mus musculus with 4 samples.

Results

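The genes described here are those whose array probes were at least 2-fold lower in Meis1-deficient than in control LSK cells on each of 2 slides. The members were chosen by that difference itself. A probe entered when it was no control or outlier spot, when all 4 arrays called it well above background, and when it stood at or below -1 on the log2 scale for Meis1 KO 1 minus control 1 and for Meis1 KO 2 minus control 2. Values are log2 processed signals with each array's 75th percentile set to 0, so that a level of 1 lies 2-fold above that percentile. Of 41174 probes on the array, 18753 were detected on all 4 arrays outside the immunoglobulin heavy chain interval of chr12 and the light chain interval of chr6, and 70 of these met the rule (0.373%). The 70 probes stood for 65 genes or transcripts out of 28482. In the left-out intervals 28 more probes met the same thresholds. Because the genotype difference picked the members, their differences are given as a description and carry no test. With single arrays left out, and the remaining array of that genotype set against both of the other, the number of probes meeting the rule was 1345 without Meis1 KO 1, 181 without Meis1 KO 2, 165 without control 1 and 134 without control 2.

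LSK cells are bone marrow cells that lack lineage markers and carry Sca-1 and c-Kit, a gate that holds hematopoietic stem cells (HSCs) and early progenitors. The Meis1 KO samples came from Mx1-Cre-positive Meis1fl/fl mice and the controls, labelled wild type, from Cre-negative Meis1fl/fl mice, so the controls carried the floxed alleles too. Mice aged 4 to 8 weeks at injection were given poly(I:C) at 1.5 µg/g 4 times, and cells were taken 1 week later. The labels describe this treatment for both genotypes, whereas the array methods call the controls sham-treated, so a poly(I:C) difference cannot be told apart from genotype if the second account holds. Each array held RNA pooled from 6 mice, with 2 pools per genotype. Mx1-Cre is interferon-inducible and is not limited to blood cells. The spread between pools covers both biological and technical variation.

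Meis1 is a TALE homeodomain transcription factor that binds DNA together with Pbx and Hox proteins. In blood it is known as a regulator of HSC maintenance and as a partner of Hoxa9 in leukemia. The member genes include other known regulators of self-renewal, among them Hmga2, a chromatin architectural protein of fetal and young stem cells, Hlf, a PAR bZIP transcription factor of HSCs, and Mllt3, a reader of acylated histones in the super elongation complex.

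For the genes with several member probes, for Trpc6, Pcp4l1 and Treml1, which follow Hmga2 among members with a symbol, and for Hlf, the first 30 bases of each 60-base probe show what each value measured. They are written 5′ to 3′ as on the array, and capitals mark bases that a second member probe of the same gene also covers.
Hmga2, chr10:119799670-119799729, minus strand of mm9: ttttcagtgacactactttgtatcacacac
Hmga2, chr10:119798739-119798798, minus strand: agttattccttatttcctgtatgttgtaca
Mllt3, chr4:87418582-87418641, minus strand: GTTGTACCTTTGTTTTGAAACTAGAAATCT
Mllt3, chr4:87418602-87418661, minus strand: ggggggagtttcttgtccttGTTGTACCTT
Mllt3, chr4:87419915-87419974, minus strand: acaaaactacagtccgtaaattacagagtt
Rora, chr9:69226611-69226670, plus strand: gcaaggtgtctacgttaagagccctatgtg
Rora, chr9:69226711-69226770, plus strand: attatacaaggaattgttcacttcagaatt
Dntt, chr19:41133761-41133820, plus strand: cataagtatactatgcagagagaatattct
Dntt, chr19:41133936-41133995, plus strand: aagcgcatcaatgcccacctgactcctgtg
Trpc6, chr9:8679469-8679528, plus strand: aaatcatgaagagactcattaaaagatatg
Pcp4l1, chr1:173103576-173103635, minus strand: tacacactattgttgttaacctaatactcc
Treml1, chr17:48506365-48506424, plus strand: tatcttggtttggtgcagtcagggagtggt
Hlf, chr11:90199978-90200037, minus strand: aggttgacctcggtgctatgtgtacggctt
The first pair of Mllt3 probes overlap and are not separate measurements of the transcript, while the remaining one lies 1253 bases away from them. The Hmga2 probes lie 871 bases apart, the Dntt probes 115 and the Rora probes 40.

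Over the 70 members, the median of the mean slide differences was -1.57, or 2.97-fold lower, against 0.13 over the 18753 detected probes. The median was -1.34 on slide 1 and -1.71 on slide 2, and 46 members had the larger difference on slide 2. The largest mean fold was 10.9 and the smallest 2.19, with 17 members over 4-fold. Beyond 4-fold on each slide separately were 8 probes, those of Hmga2, Trpc6, Pcp4l1, Treml1, Cyp26b1, Nupr1, Hlf and Tmprss3. In the opposite direction, 59 detected probes were at least 2-fold higher on both slides (0.315%). Another 44 were 2-fold lower on slide 1 and 2-fold higher on slide 2, and 30 the reverse. The slides contributed unequally, since 313 probes were at or below -1 on slide 1 (1.67%) and 1806 on slide 2 (9.63%). At or above 1 were 350 probes on slide 1 and 2559 on slide 2.

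**Figure D1:**
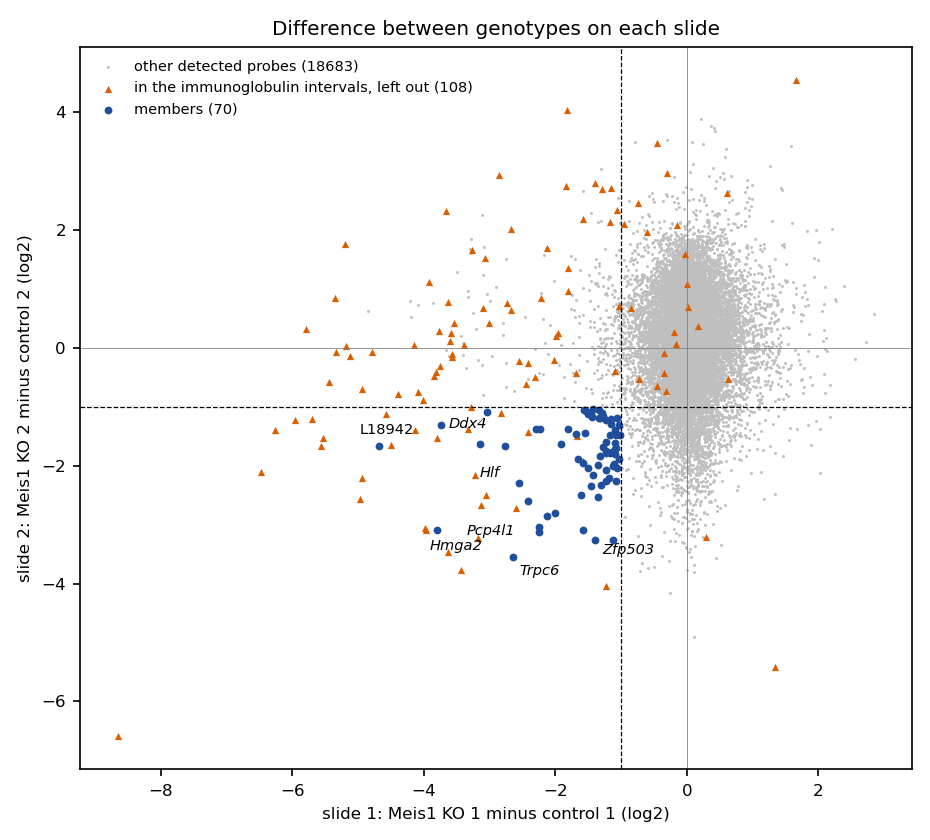
Each point is a probe detected on all 4 arrays, placed by its Meis1 KO minus control difference (log2) on slide 1 (horizontal) and slide 2 (vertical), with dashed lines at -1. The 70 members fill the lower left corner by construction, the 108 triangles are probes in the left-out immunoglobulin intervals, and the grey cloud is taller than wide because slide 2 differences spread further.

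At the threshold, the members closest to -1 on their weaker slide were Coq10b at -1.01, the mouse mammary tumor virus env transcript AF043688 at -1.03 and the unclassified clone AK054477 at -1.03. Just outside stood Id2 at -0.99, Col5a1 at -0.98 and H2-Aa at -0.98. These neighbours on either side differed by less than 0.05.

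Meis1 itself was no member. Its probe at chr11:18911247-18911306 read 0.28 and 0.24 in Meis1 KO 1 and 2 and 1.04 and 1.47 in control 1 and 2, a difference of -0.77 on slide 1 and -1.23 on slide 2. A second Meis1 probe, at chr11:18781206-18781265, was detected on 3 of 4 arrays, with -2.44 and -3.52 in the Meis1 KO pools and -1.52 and -1.04 in the controls. Both were lower in every Meis1 KO pool than in every control pool. Whether either probe lies in the deleted exon 8, which encodes the homeodomain, was not determined from the annotation used here, so neither checks the deletion.

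The arrays differed in quality and in likeness. Between 49.2% (Meis1 KO 2) and 57.4% (control 1) of spots were well above background, and detected probes correlated at 0.91 to 0.93 between Meis1 KO 2 and the other arrays against 0.97 to 0.98 among the other arrays. The sort markers were at like levels in all pools, with Kit between 1.83 and 2.17 and Ly6a, which encodes Sca-1, between 3.30 and 3.87. Of the lineage genes, both Cd3e probes were detected on no array, and 1 of 2 Itgam probes on 4.

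The mean difference furthest below 0 at this processing was that of Hmga2. Its upper probe stood at -2.18 and -1.70 in Meis1 KO 1 and 2 and at 1.62 and 1.39 in control 1 and 2, which is 13.9-fold lower on slide 1 and 8.50-fold lower on slide 2. The second Hmga2 probe read -2.18 and -2.06 against -0.75 and -0.89, a mean of 2.46-fold. The alternative normexp background correction adds an offset of 50 to every signal, which by itself draws differences of dim probes towards 0. After normexp the upper Hmga2 probe stood at -2.13 (4.37-fold), behind Pcp4l1, Hlf and L18942, and the second at -0.42. On Meis1 KO 2 these probes stood 2.88-fold and 2.25-fold above the lowest signal called well above background on that array, so the differences were measured close to that limit. A further Hmga2 probe, from another transcript, was detected on no array.

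Hlf was bright throughout. It measured 2.76 and 2.03 in the Meis1 KO pools and 5.32 and 4.31 in the controls, or 5.88-fold and 4.88-fold lower by slide, and its dimmest signal was still 38.2-fold above the detection floor. Rora, a retinoic acid-related orphan receptor and clock component, gave 0.34 and -1.73 against 1.88 and -0.28 at one probe and 0.33 and -1.26 against 1.90 and -0.21 at the other. Its levels depended on the slide in both genotypes, so that Meis1 KO 1 lay above control 2. Among 18 detected probes of circadian clock and PAR bZIP genes, these 3 were members. Of the other 15, 7 were lower and 1 higher on both slides by any amount, with medians of -0.21 on slide 1 and -0.09 on slide 2. Over all detected probes 17.5% were lower on both slides and 33.3% higher on both, with medians of 0.03 and 0.22. Tef and Dbp, the other PAR bZIP factors, were at -0.13 and -0.21 on slide 1 and at 0.61 and 0.53 on slide 2.

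The 3 Mllt3 members were bright as well. At the overlapping pair the Meis1 KO pools read 3.17 and 2.04 at one probe and 3.30 and 2.31 at the other, and the controls 4.34 and 3.82 and 4.39 and 4.03. The remaining probe gave 1.96 and 0.15 against 3.09 and 1.92, so that Meis1 KO 1 and control 2 overlapped there. Mean folds ran from 2.65 to 2.78. A pair of overlapping Mllt3 probes further along the transcript, at chr4:87415836-87415895 and chr4:87415812-87415842, gave mean differences of -0.51 and -0.02. At the former the slides had opposite signs (-1.58 and 0.57).

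Trpc6, a receptor-operated cation channel, was lower by 8.57-fold. Its levels were -2.18 and -1.93 in the Meis1 KO pools and 0.47 and 1.61 in the control pools, and the gap between genotypes exceeded the gap between pools of a genotype. After normexp the Trpc6 difference was 3.42-fold. Sult1a1, a phenol sulfotransferase, measured 0.69 and -0.82 against 1.92 and 0.92, a mean of 2.80-fold. In a list of 31 detected genes known from HSCs, with 49 detected probes, 8 probes were members (Hmga2 and Mllt3 with several, Hlf, Trpc6 and Sult1a1). Members made up 16.3% of these probes, against 0.373% of all detected probes. Of the other 41, 12 were lower and 4 higher on both slides, against 17.5% and 33.3% of all detected probes. The median of the 41 was 0.06 on slide 1, near that of all detected probes, and -0.51 on slide 2. The list was written with earlier results of these arrays known, so this count is not independent evidence of a direction. Some other stem cell genes of the list were near 0 or differed between slides. Procr was at -0.74 and 0.07 by slide, Gata2 at 0.03 and -0.24 at its brighter probe, and Hoxa9 at -0.04 and 0.14.

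**Figure D2:**
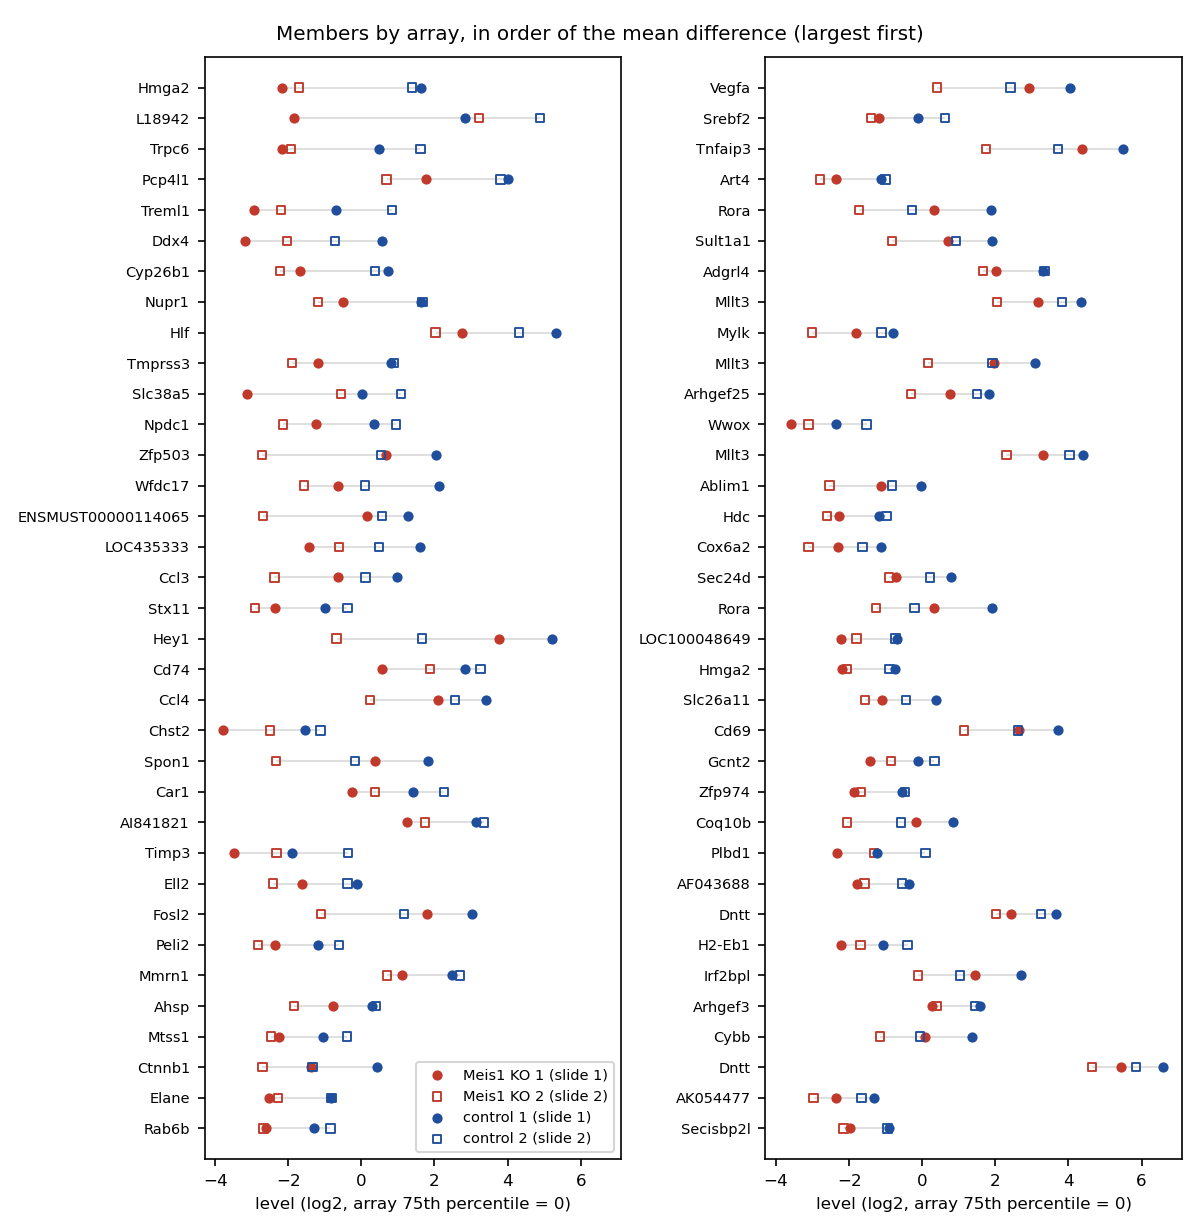
Levels of all 70 members on the 4 arrays (log2, array 75th percentile = 0), ordered by mean difference, with filled circles for slide 1 and open squares for slide 2. In 56 rows both red Meis1 KO symbols lie left of both blue control symbols, and in 14, such as Hey1, Rora and Cd69, they overlap because both genotypes differed between slides.

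Several more members with differences over 4-fold come from unrelated families. Pcp4l1, a small calmodulin-regulator-like protein, measured 1.78 and 0.69 in the Meis1 KO pools against 4.02 and 3.81, or 6.41-fold. Nupr1, a stress-induced chromatin protein, gave -0.49 and -1.18 against 1.63 and 1.67, or 5.6-fold, with controls that differed by less than 0.05. Cyp26b1, which degrades retinoic acid, gave -1.68 and -2.23 against 0.72 and 0.37. All 3 were separated by more than the spread within either genotype. Tmprss3, a membrane serine protease, measured -1.18 and -1.90 against 0.82 and 0.89. Npdc1 measured -1.24 and -2.14 against 0.33 and 0.95. Ddx4, the germ cell RNA helicase Vasa, read -3.17 and -2.03 against 0.56 and -0.72, so its fold was 13.3 on slide 1 and 2.49 on slide 2. Slc38a5, a glutamine transporter, was likewise uneven, with -3.13 and -0.56 against 0.01 and 1.08. For Zfp503, a zinc finger repressor, the unevenness lay the other way: 0.66 and -2.72 against 2.05 and 0.53.

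Megakaryocyte genes gave 2 members. Treml1, a receptor of platelet alpha granules, stood at -2.95 and -2.20 in the Meis1 KO pools and at -0.70 and 0.84 in the controls, a mean of 6.27-fold. After normexp the Treml1 difference was 2.04-fold, and without control 2 it was -1.88 on the log2 scale. Mmrn1, which encodes the alpha granule protein multimerin 1, stood at 1.12 and 0.70 against 2.47 and 2.69, or 3.18-fold. Of 35 megakaryocyte and platelet probes, 4 were detected on no array and 21 on all. Among the 19 of these that were no members, 5 were lower and 2 higher on both slides, with medians of 0.37 on slide 1 and -0.67 on slide 2. Detection on all arrays leaves out probes that were dim in Meis1 KO 2, such as Slc35d3 at -2.59 and -4.49 by slide, and of 8 detected on 2 or 3 arrays 4 were lower and 2 higher on both. The mean level of the 21 probes was 0.83 and 0.60 in the Meis1 KO pools and 0.73 and 1.61 in the controls, and its part in the Treml1 and Mmrn1 differences was not tested. Pf4, platelet factor 4, was 0.77 lower on slide 1 and 1.93 lower on slide 2 on the log2 scale, while Itgb3 was 0.40 and 0.20 higher at its brighter probe. In bulk RNA of a sorted population, fewer cells of a type and less RNA per cell cannot be told apart.

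The members Ccl3, Ccl4 and Wfdc17 lay next to each other on chr11. The chemokine genes Ccl3 (chr11:83461358-83461417) and Ccl4 (chr11:83478052-83478111) lay 16.6 kb apart and Wfdc17 (chr11:83518443-83519627), a small secreted whey acidic protein relative, a further 40.3 kb on. Ccl3 read -0.63 and -2.38 in the Meis1 KO pools and 0.97 and 0.11 in the controls. Ccl4 read 2.10 and 0.23 against 3.40 and 2.56. Wfdc17 read -0.65 and -1.57 against 2.11 and 0.09. In each case both Meis1 KO values lay below both control values, and slide 1 was the higher slide in both genotypes. Next to them, 2 overlapping probes of Wfdc18 missed the rule only because the dimmest array, Meis1 KO 2, did not detect them. One of them gave -2.72 and -4.05 against 0.16 and -1.59, the other -2.83 and -4.26 against 0.10 and -1.34. Farther along, Wfdc21 did not share the difference, at -0.80 on slide 1 and 0.61 on slide 2. Of 99 detected probes named as cytokines, chemokines and their receptors or regulators, 3 were members (Ccl3, Ccl4 and Tnfaip3), and the median of the 99 was 0.15.

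Elsewhere 2 pairs of member genes lay within 250 kb of each other. Nupr1 and Sult1a1 were 49.6 kb apart on chr7 with Sgf29 (0.31 and -0.12) and AK020571 (0.21 and 1.26) detected between them, and Plbd1 and Art4 were 237 kb apart on chr6 with no other probe between them that was 2-fold lower on both slides. Members lay on 20 chromosomes, with the most on chr10 (7 probes), and 34 of the 68 with coordinates were on each strand.

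A further group differed strongly between slides, each of which held other pools of mice, so that slide and pool cannot be told apart. The pools of the slides also differed in sex-linked transcripts. Eif2s3y, on the Y chromosome, read 3.27 and 3.39 in Meis1 KO 1 and control 1 and -5.23 and -5.68 in Meis1 KO 2 and control 2, and the Xist probe detected on all arrays read -1.99 and -3.43 on slide 1 and 2.09 and 1.44 on slide 2. Both genotypes showed this contrast between the slides, although Xist was also 1.45 and 0.66 higher in the Meis1 KO pool by slide. Its part in the slide differences cannot be told apart from the slide. In 14 members slide 1 was more than 2-fold above slide 2 in both genotypes, which is 20% of the members against 1.34% of detected probes. These included Hey1, a Notch target repressor, at 3.77 and -0.68 in Meis1 KO 1 and 2 and at 5.22 and 1.66 in control 1 and 2. Hey1 differed between the slides by 4.45 in the Meis1 KO pools and by 3.56 in the controls, more than between the genotypes on either slide. Without Meis1 KO 2 the Hey1 difference was 0.33, above 0, and without Meis1 KO 1 it was -4.12.
Fosl2, an AP-1 subunit, read 1.79 and -1.1 against 3.02 and 1.16. Tnfaip3, the NF-kB inhibitor A20, read 4.38 and 1.74 against 5.49 and 3.71. Vegfa, the vascular growth factor, read 2.92 and 0.41 against 4.05 and 2.42. In each of these, Meis1 KO 1 lay above control 2. Cd69, an early activation antigen, behaved likewise with 2.64 and 1.15 against 3.71 and 2.62, as did Spon1, a matrix protein, with 0.38 and -2.34 against 1.82 and -0.18. Irf2bpl (1.44 and -0.12 against 2.70 and 1.03) and Cybb, the phagocyte oxidase subunit (0.09 and -1.16 against 1.37 and -0.06), were also in this set. For these genes the direction of the genotype difference rests on comparing arrays of the same slide. The mean level of the immediate early genes was 3.27 and 2.31 in the Meis1 KO pools and 3.56 and 2.70 in the controls, and 1 of 32 detected probes, that of Fosl2, was a member. Of the other 31, 16 were lower and 5 higher on both slides, against 17.5% and 33.3% of all detected probes. The medians of the 31 were -0.18 on slide 1 and -0.06 on slide 2. All 6 probes of the list detected on 2 or 3 arrays were lower on both slides.

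**Figure D3:**
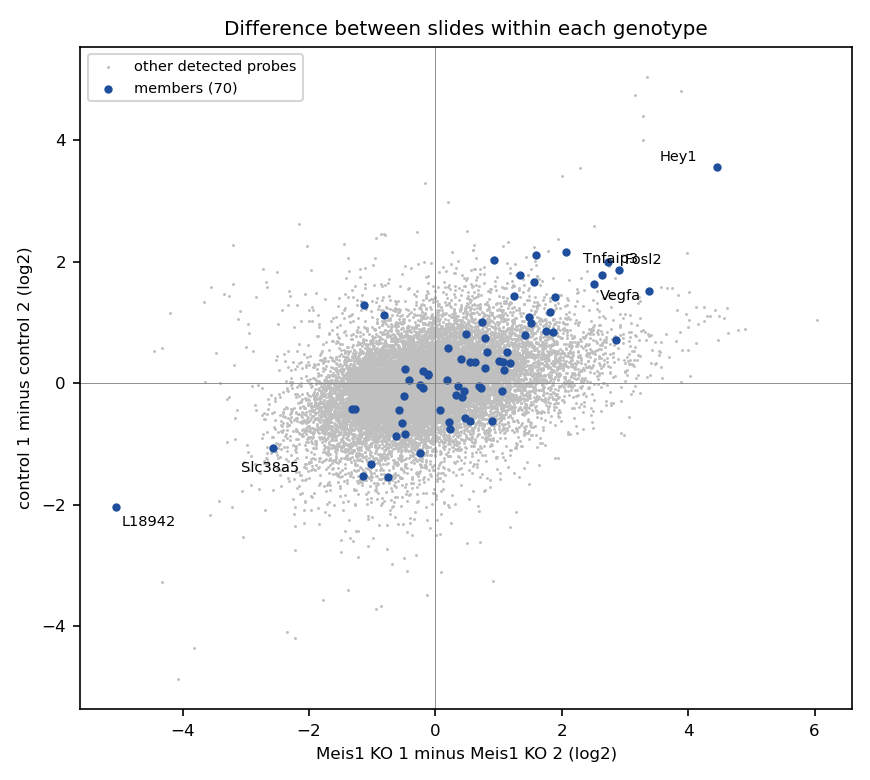
Each detected probe is placed by the difference between the slides within the Meis1 KO pools (horizontal) and within the control pools (vertical), in log2. Hey1 (4.45 and 3.56) and the other members at the upper right were higher on slide 1 in both genotypes, while L18942 at the lower left (-5.06 and -2.05) was higher on slide 2.

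The size of many differences rested on single arrays or on the background correction and its offset. Of the 70 members, 29 moved by more than 1.5 times when some array was left out. Besides Hey1 and Treml1 these were probes of Ddx4, Slc38a5, Zfp503, Wfdc17, Ccl3, Ccl4, Cd74, Chst2, Spon1, Timp3, Fosl2, Ctnnb1, Vegfa, Tnfaip3, Rora, Sult1a1, Mylk, Mllt3, Ablim1, Cd69, Coq10b, Plbd1, Irf2bpl, Cybb, ENSMUST00000114065 and L18942. Without Meis1 KO 2 the difference was -0.22 for Tnfaip3, -0.31 for Vegfa, -0.53 for Cd69, -0.43 for Irf2bpl, -0.68 for Ablim1 and -0.87 for Mylk, and without control 2 it was -0.58 for Plbd1. The difference of Zfp503 ran from -4.01 without Meis1 KO 1 to -0.63 without Meis1 KO 2, that of Rora at chr9:69226611-69226670 from -2.58 without control 2 to -0.42 without control 1, and that of L18942 from -5.70 without Meis1 KO 2 to -0.64 without Meis1 KO 1. After normexp 34 of the 54 probes chosen for naming moved by more than 1.5 times, all towards 0. The offset of 50 alone draws dim probes that way, and its share in these moves was not tested. Among the 34 were Ddx4 (1.93-fold), Cyp26b1 (2.28-fold), Nupr1 (3.24-fold), Tmprss3 (2.64-fold) and Elane (1.41-fold). Among the differences closest to 0 after normexp were -0.13 for AK054477, -0.23 for Chst2, -0.26 for Hdc, -0.27 for the second Meis1 probe, -0.35 for H2-Eb1 and -0.43 for Timp3, and Id2 outside the threshold was at -0.08. Pcp4l1, Hlf, AI841821, Mmrn1 and both Dntt probes moved by less than 1.5 times in each of these settings.

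Lymphoid and antigen-presentation genes made up a further set. Dntt, the template-independent DNA polymerase of early lymphoid cells, had the brightest member probe, at 5.43 and 4.64 in the Meis1 KO pools and 6.59 and 5.85 in the controls. Its second probe gave 2.43 and 2.02 against 3.65 and 3.26. The slide differences of the 2 probes lay between -1.16 and -1.23, the closest match between slides and probes among genes with several members. A further Dntt probe, at chr19:41115786-41117355, gave -1.41 on slide 1 and -0.02 on slide 2. Among the 10 other detected probes of lymphoid-primed progenitor genes, that further Dntt probe included, 6 were lower and 1 higher on both slides, against 17.5% and 33.3% of all detected probes, with medians of -0.59 and -0.25 by slide. Rag1, the recombinase subunit, was at -1.20 and -0.38, Satb1 at -0.94 and -0.68 and Cd27 at -0.68 and -0.69.

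Cd74, the invariant chain that guides MHC class II, measured 0.56 and 1.87 in the Meis1 KO pools and 2.84 and 3.26 in the controls. H2-Eb1, a class II beta chain, measured -2.21 and -1.69 against -1.06 and -0.40. Its probe is described by the array as matching an I-A beta transcript, so signal of related class II genes is not told apart. Of the 13 other detected class II probes, 10 were lower on both slides, against 17.5% of all detected probes, and none was higher on both. Their medians were -0.79 and -0.75 by slide, and one H2-Aa probe missed the rule by less than 0.05 on slide 1.

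The members L18942 and LOC435333 carried immunoglobulin descriptions and lay just outside the left-out intervals. L18942, a light chain VJ transcript (chr6:70654131-70672577), read -1.84 and 3.22 against 2.83 and 4.88. LOC435333, similar to an antibody heavy chain (chr12:117238447-117238506), read -1.43 and -0.61 against 1.60 and 0.48. Ell2, an elongation factor known for its role in antibody secretion, read -1.63 and -2.41 against -0.13 and -0.38. Plasma cell genes as a list differed between pools. The mean level of its 16 detected probes was -0.25 and 0.83 in the Meis1 KO pools and 1.26 and 0.66 in the controls, and 1 of its 25 probes was detected on no array. Of the 15 other than Ell2, 4 were lower and none higher on both slides, against 17.5% and 33.3% of all detected probes. The B lineage list, with 14 detected probes and 10 of 33 detected on no array, averaged 0.22 and 0.46 in the Meis1 KO pools and 1.42 and 0.41 in the controls. Of its 12 detected probes that were no members, 5 were lower and none higher on both slides. Both lists were thus highest in control 1. The part of such cells in the differences of L18942, LOC435333, Ell2, Cd74 and H2-Eb1 was not tested.

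Erythroid and myeloid genes contributed a few members, while their lists held probes of both directions. Car1, the erythroid carbonic anhydrase, stood at -0.26 and 0.37 against 1.40 and 2.27. Ahsp, the alpha hemoglobin chaperone, stood at -0.79 and -1.85 against 0.28 and 0.41. Art4, which carries the Dombrock blood group, stood at -2.35 and -2.80 against -1.13 and -1.01. Of the 17 other detected erythroid probes 3 were lower and 9 higher on both slides, with medians of 0.25 and 0.45 by slide. The list, members included, averaged 1.45 and 1.36 in the Meis1 KO pools and 1.57 and 0.73 in the controls. Elane, neutrophil elastase, stood at -2.53 and -2.28 against -0.84 and -0.81, while among the other primary granule genes Mpo was at 0.32 and 0.80 and Ctsg at -0.00043 and 1.83. Of the 7 other detected neutrophil granule probes, 2 were lower and 2 higher on both slides, and the mean level of all 8 was 1.90 and 1.14 in the Meis1 KO pools against 2.41 and 0.59 in the controls. Hdc, the histamine-forming decarboxylase, stood at -2.27 and -2.60 against -1.17 and -0.98. Plbd1, a phospholipase B-like enzyme of granulocytes, stood at -2.34 and -1.31 against -1.25 and 0.09.

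The remaining members had varied roles. Adgrl4, an endothelial adhesion G protein-coupled receptor, stood at 2.02 and 1.67 against 3.30 and 3.35. The difference between genotypes was several times the gap between pools. Timp3, a metalloproteinase inhibitor, read -3.47 and -2.32 against -1.89 and -0.37. The sulfotransferase Chst2 read -3.77 and -2.50 against -1.55 and -1.12, and the branching enzyme Gcnt2 -1.43 and -0.86 against -0.10 and 0.33. The actin-linked genes Mylk, Mtss1 and Ablim1 had mean folds of 2.76, 3.14 and 2.62.
Stx11, a syntaxin of cytotoxic granule release, read -2.35 and -2.91 against -1.0 and -0.38. The guanine nucleotide exchange factors Arhgef25 and Arhgef3 were 2.72-fold and 2.29-fold lower, and Arhgef3 was the more even, at 0.27 and 0.39 against 1.59 and 1.45. Rab6b and Sec24d, both of vesicle transport, were 2.97-fold and 2.47-fold lower. Srebf2, the sterol-response transcription factor, was 2.92-fold lower, and the ubiquitin ligase Peli2 3.24-fold. Cox6a2, Coq10b, Slc26a11, Wwox, Zfp974 and Secisbp2l had mean folds between 2.19 and 2.65. The remaining member with a symbol, Ctnnb1 (beta-catenin), is taken up with the probes of the same gene.

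7 members had no gene symbol. AI841821, an expressed sequence tag, was among the more even of all members, at 1.24 and 1.74 against 3.15 and 3.36. ENSMUST00000114065, annotated as Cpeb2, an RNA-binding regulator of polyadenylation, read 0.16 and -2.69 against 1.28 and 0.56. LOC100048649, similar to the protease Adamts13, read -2.22 and -1.80 against -0.68 and -0.74. AF043688 and AK054477 have been given with the threshold, and L18942 and LOC435333 with the immunoglobulin genes.

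Other probes of the same genes gave a second reading from the same arrays. Among 58 member genes with a symbol, 14 had 25 further detected probes. 14 of these probes were lower on both slides, 2 were higher on both and 9 were mixed, and their median mean difference was -0.40 against 0.13 over all detected probes. Of all detected probes 17.5% were lower and 33.3% higher on both slides. Srebf2 was the most even of the genes with 3 further probes, all lower, at means of -0.58 to -0.86. Ablim1 had one at -1.07 and others at -0.54 and -0.06. For Ctnnb1 the member probe, from a thymus clone, read -1.37 and -2.71 against 0.44 and -1.33, whereas 2 brighter probes of the reference transcript gave mean differences of -0.08 and 0.22, with levels between 3.78 and 6.4. Mtss1 and Wwox were also discordant, with further probes at 0.94 and -0.31 for Mtss1 and at 0.21 and -0.14 for Wwox. Vegfa gave -0.75, -0.31 and 0.16. For these genes the value belonged to a probe and not to every probe of the gene.

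**Figure D4:**
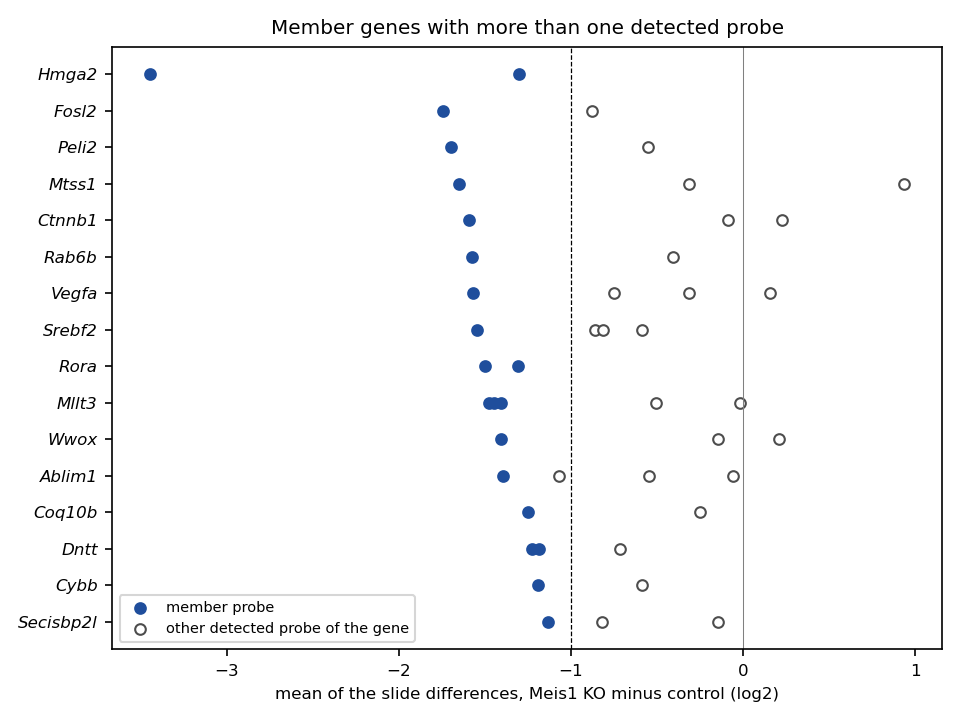
Mean of the slide differences (log2) for each probe of the 16 member genes with more than 1 detected probe, with filled symbols for members and open symbols for the other detected probes. Open symbols of Srebf2 lie between -0.58 and -0.86, those of Ctnnb1, Wwox and Mtss1 reach above 0, and the dashed line marks -1.

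The rule uses the levels of both genotypes, so the members' levels are a description only. Their median was 0.65 in the controls and -1.28 in the Meis1 KO pools, against 0.22 and 0.24 for all detected probes, and 37 of 70 exceeded the 75th percentile on both control arrays. On the dimmest array, 21 members lay within 2-fold of the lowest signal called well above background, and for 63 members that array was Meis1 KO 2, the dimmest of the 4. Wwox and Cox6a2 were both at 1.08 times that limit, so their levels there were close to it. The median GC content of the probes was 41.7% for the members and for all detected probes alike. In 56 members both Meis1 KO values lay below both control values, against 7.91% of all detected probes, a count the rule itself raises.

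Promoter windows of 46 of the 58 member genes with a symbol were held by the RefSeq table used here (GRCm38.p6, 250 bases before to 50 after each start, 60 windows). The Meis core TGACAG, searched on both strands, was found in 11 of the 60 windows (18.3%) against 19.2% of 32851 windows of all genes. The Pbx-Meis motif TGATTGAC, the Hox-Pbx motif TGATTTAT, the PAR bZIP motif TTACGTAA and the heat shock element were found in none of the 60, and in 0.77%, 0.98%, 0.12% and 0.60% of all windows. A Pbx-Meis match followed by AG would also count as a Meis core. Matches upstream of a start in 3 members with large differences or several probes are shown, with the reverse complement of the Meis core in capitals. The windows of Hmga2, Hlf and Trpc6 held no match.
Mllt3, 50 bases before a start, in the window chr4:87806274-87806573, minus strand: catgtgtttgCTGTCAtttaaactgc
Pcp4l1, 62 bases before the start, in chr1:171196219-171196518, minus strand: gttcaaggagCTGTCAgtctgcacta
Treml1, 99 bases before the start, in chr17:48359666-48359965, plus strand: cccagtgtaaCTGTCAgcctcgatgg
A match gives the letters only, and no binding was measured.

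The study's criteria were a p below 0.01 without adjustment and a change over 2-fold. Fitted with limma, 132 of 22007 tested probes met them as lower in Meis1-deficient LSK cells (0.6%), and 15 of the 70 members were among them. These were Hlf, Elane, AI841821, Npdc1, Ddx4, Ell2, Treml1, the upper Hmga2 probe, Pcp4l1, Tmprss3, Trpc6, Mmrn1, Cyp26b1, Stx11 and Nupr1. With the slide as a block, 297 probes (1.35%) and 35 members met them. With single arrays left out, the lone array of a genotype is assumed to vary like the pair of the other, and the member count was 25 without Meis1 KO 1, where 6.93% of all tested probes met the criteria. It was 15 without Meis1 KO 2 (0.914% of all), 3 without control 1 (1.17%) and 4 without control 2 (0.503%). The same contrast chose the members, so these counts describe how even their differences were and test nothing about them.

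Of 55 detected S phase probes, 42 were higher and 2 lower on both slides, with a median of 0.36, and none was a member. At the share of the rule, 0.373%, a list of this size holds few members or none, so nothing about the members is read from that.

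**Figure D5:**
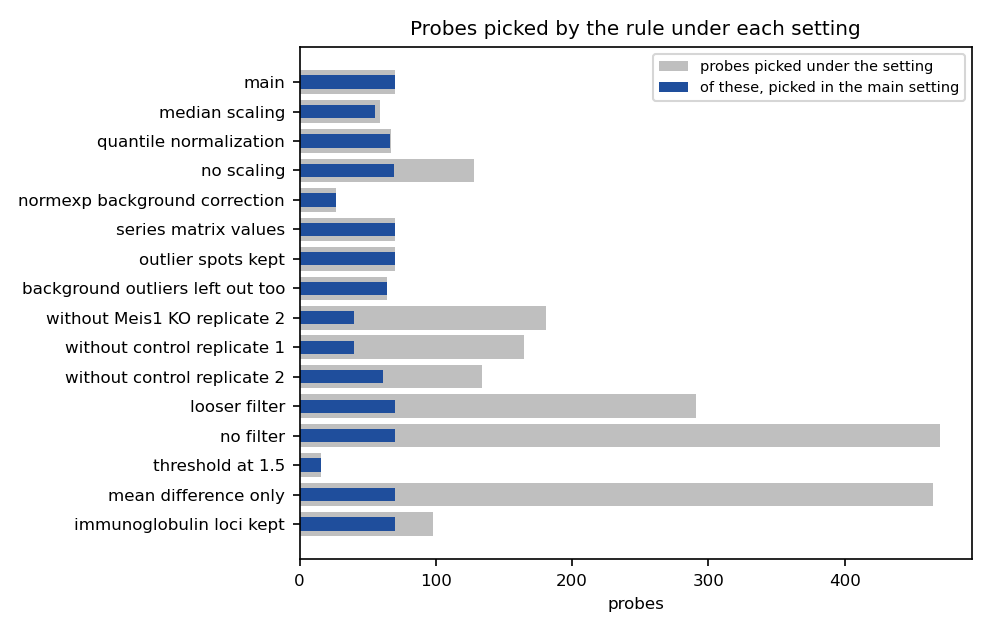
Number of probes meeting the rule under each processing setting (grey bars, axis from 0) and how many of the 70 are among them (blue bars). The count ran from 16 to 470, and the setting without Meis1 KO 1, at 1345 probes with 61 of the 70, is left off the plot.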

How the data were processed

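RNA of LSK cells was measured on 4 single-color arrays of 60-base probes, 1 per pool. The authors deposited the intensity of each spot as written by Feature Extraction (9.5.3.1 per the file headers, 9.1 per the submitters' processing notes), background-subtracted and not scaled between arrays. The authors' series table holds the same intensity values, rounded by at most 0.496%, and served as an alternative. Groups follow the labels. Per the file headers, arrays numbered 1 shared a slide, as did those numbered 2. Departures from the genotype mean correlated at 0.27 between arrays of a slide over the tested probes.

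After removal of control and outlier spots, log2 signals were averaged per probe and centered on the 75th percentile of the array. The members, the gene lists and the rule for named genes were chosen with earlier results of these data known. The named genes are the 25 largest differences with a symbol, members in a gene list written as symbols or with several probes, the 3 probes on each side of the threshold, Meis1 and the 5 largest without a symbol (54 probes), and the other members are given more briefly. Genotypes were also fitted with limma 3.58.1 in R 4.3.3 (lmFit and eBayes, genotype as the only term) on probes detected by each array of a genotype, for 1 genotype or both. No probe had a Benjamini-Hochberg adjusted p under 0.05, while 618 had an unadjusted p under 0.05. With the slide block these counts were 34 and 1305, and by the methods' t-test 0 and 533. The scripts were tested on simulated data. Symbols were updated through RefSeq accessions of a GRCm38.p6 gene table (59 members matched, 5 renamed), coordinates are those of mm9 in the array's annotation, and exons and untranslated regions were not used here. Signal over background and 2 arrays per genotype limit the precision.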

Additional observations from a re-analysis of the deposited data

How the results depend on the processing

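The number of probes meeting the rule, 70, was 59 after median scaling (55 of them among the 70), 67 after quantile normalization, 64 with background outliers left out too, and 98 with the immunoglobulin loci kept. It was 128 with no scaling, which moved the median of all detected probes from 0.13 to -0.24, and 69 of the 70 were among them. It was 27 after normexp background correction, whose offset of 50 draws dim probes towards 0, all among the 70. It was 291 with detection asked in 1 genotype only and 470 with no filter on dim probes. It was 16 with the threshold at -1.5 and 465 with only the mean difference used. Leaving out single arrays gave 134 to 1345, with 61 of the 70 among them without Meis1 KO replicate 1 or wild type replicate 2 and 40 without Meis1 KO replicate 2 or wild type replicate 1. The series table and kept outlier spots left it at 70.

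Of the 70 members, the 15 that met the study's criteria in limma became 23 with detection asked on all 4 arrays, 35 with the replicate block (slide pairing) and 6 by the methods' t-test, and 3 to 25 with single arrays left out. The share of all tested probes that met them moved too, from 0.6% to 0.233%, 1.35%, 0.105% and 0.503% to 6.93%. The cause of these changes was not tested. Among the 54 named probes, the single change of sign was Hey1 without Meis1 KO replicate 2, at 0.33, against -4.12 without Meis1 KO replicate 1. Limits are the 2 pools per genotype, the dimness of Meis1 KO 2 and the detection floor.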
